A study of Mus musculus with 9 samples.

Results

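Whole pancreas of mice with a knock-in at Snd1 was compared with that of wild-type mice, gene by gene, beyond the lymphocyte transcripts that fall in it. The comparison takes every gene that averaged at least 10 normalized counts over the Snd1_KI and WT libraries. It kept 12045 of the 46078 genes of the table, measured in 6 of the 9 samples of the series. The genes were read in 31 lists of acinar, duct, stromal, islet and blood-cell genes.

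RNA was taken from frozen, ground pancreas of 8-week-old mice and sequenced as polyA-selected, strand-specific paired-end libraries of 150-base reads. The mutant animals carried a knock-in at Snd1 (Snd1_KI, n = 3). A second mutant of the series carried an S6k2 allele labelled RK (S6k2_RK, n = 3). It shares the fit with the other groups and is set beside Snd1_KI for some genes. The controls were wild-type littermates (WT, n = 3). The base change of the knock-in, whether both copies carried it, the strain and the sex are not stated in the sources used here. No label gives the RNA preparations a batch. Each group was 3 animals, so a p-value weighs a difference against the spread between animals. In limma that spread is estimated over all 9 libraries.

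The exocrine pancreas is mostly acinar cells, which make digestive enzymes on the rough endoplasmic reticulum (ER), pack them into zymogen granules and release them when cholecystokinin or acetylcholine raises calcium. Islets of endocrine cells, ducts, fibroblasts, vessels and a mesothelial cover make up the rest, and pancreatic lymph nodes and fat lie against the organ. SND1, the product of Snd1, is a protein with nuclease-like domains and a Tudor domain, a fold that binds methylated arginine, and it acts in RNA processing and transcription. The series is about the reading of methylated S6K2, an mTOR-dependent kinase, by this Tudor domain.

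The deposited values are normalized counts, which are gene counts divided by 1 size factor per library. The libraries held 14814682 to 21034501 reads in Snd1_KI and 13461427 to 14635278 reads in WT. After the authors' scaling the totals were still apart, 15491300 to 16290600 normalized counts in Snd1_KI against 12769500 to 13238800 in WT. Digestive enzymes and granule proteins took 74.5%, 75.3% and 75.4% of these totals in the Snd1_KI libraries, against 70.7%, 71.2% and 72.3% in the WT libraries. They differed by 3.66 percentage points without overlap (two-sided exact permutation p = 0.1, the smallest that 3 against 3 can give). Enzyme messages dominate exocrine pancreas, the tissue named in the labels. All fold changes below are log2 differences of log2(normalized count + 1), with the standard error (SE) and the limma p adjusted over the 12045 genes, and a gene is called at an adjusted p below 0.05. In whole tissue, fewer cells of a type and less RNA per cell cannot be told apart.

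Snd1 itself (chromosome 6, 28475139 to 28935162, GRCm38) had 2808, 3181 and 2722 normalized counts in the Snd1_KI libraries, against 1906, 1894 and 2180 in the WT libraries. The groups did not overlap, and the gene rose by 0.54 ± 0.12 (limma adjusted p = 0.00992). The call was lost without Snd1_KI replicate 2 or WT replicate 2 (highest adjusted p = 0.069) and when all libraries were scaled to equal totals (0.26, adjusted p = 0.0915). The S6k2_RK libraries, at 2316, 3147 and 2940.5, also lay above every WT library. Snd1_KI differed from S6k2_RK by 0.06 ± 0.12 (limma adjusted p = 0.903), so the higher level was not particular to Snd1_KI. A transcript level does not check the genotype of a knock-in whose base change is not known here.

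Of the 12045 genes, 288 (2.39%) were higher and 398 (3.3%) were lower in Snd1_KI by limma. For 3277 genes (27.2%) the 2 groups were fully apart. Falls were large and rises small: 18 of the 288 rises and 266 of the 398 falls exceeded 2-fold, and the median log2 fold change was 0.57 in the rises and -1.46 in the falls. Among genes averaging 500 or more normalized counts the numbers turned round, with 111 higher and 36 lower. Leaving out 1 library changed these counts, to between 75 higher without WT replicate 2 and 349 without WT replicate 3, and to between 141 lower without WT replicate 2 and 340 without WT replicate 3. Rises were fewer without Snd1_KI replicate 1 (144), 2 (83) or 3 (89) and without WT replicate 1 (141), and falls were fewer without Snd1_KI replicate 2 (205) or 3 (194).

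**Figure D1:**
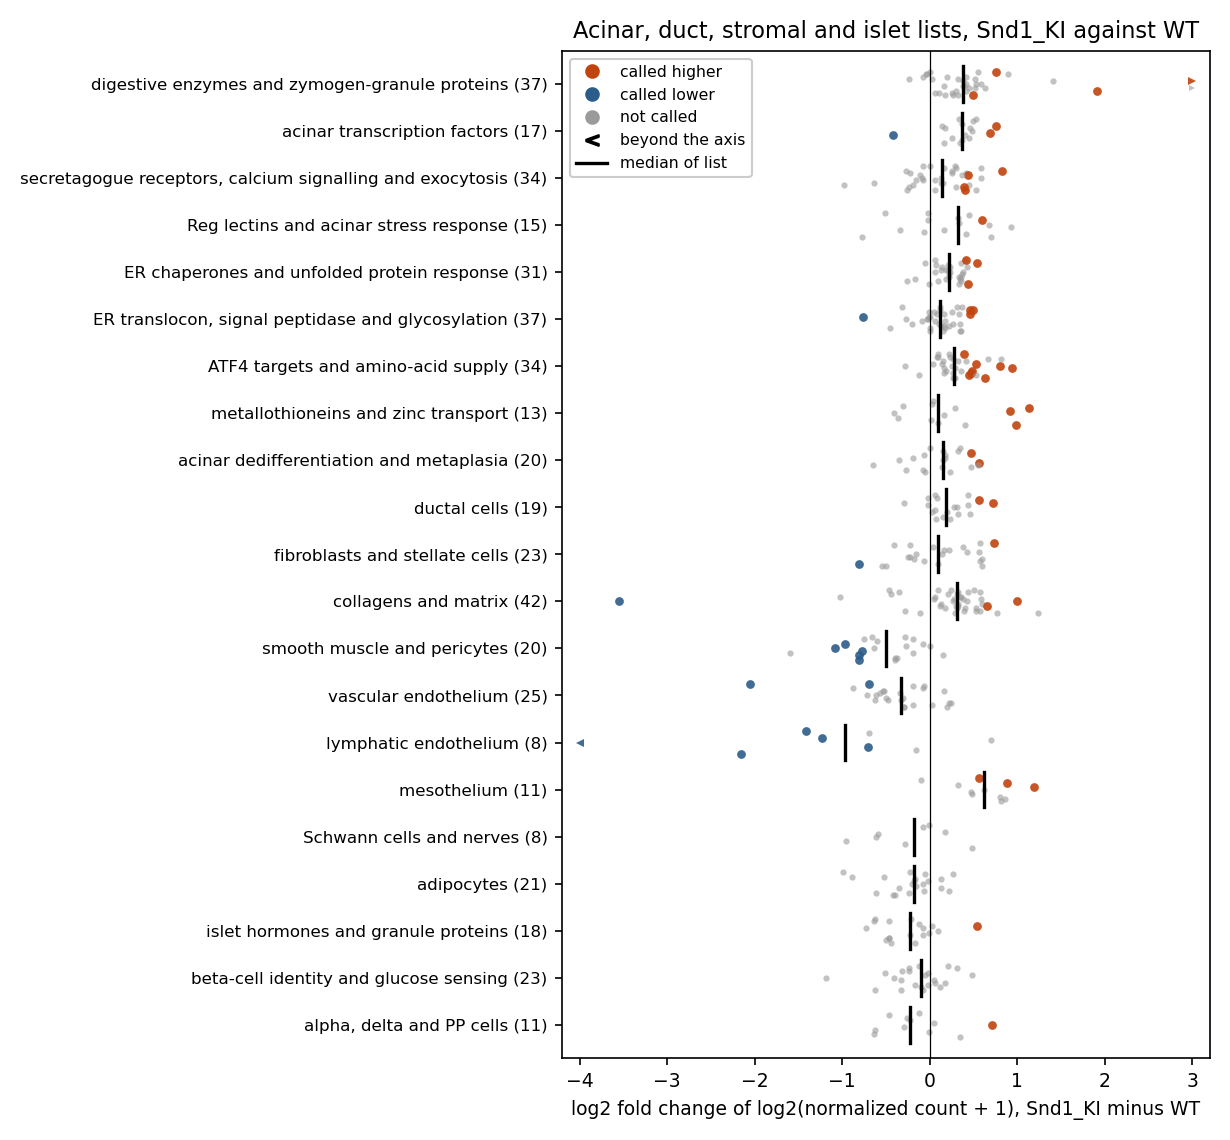
Log2 fold change (x axis, Snd1_KI minus WT) of each tested member of 21 gene lists (rows, with the number tested); each point is 1 gene, arrowheads stand for genes beyond the axis and the bar is the median of the list. Acinar lists lie right of 0 with medians up to 0.39, the smooth muscle and endothelial lists lie left of it, with a median of -0.97 for lymphatic endothelium, and the mesothelial list has the highest median, 0.63.

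The size of the rises rests on the scaling. At equal library totals the median gene moved by -0.28, 44 genes were higher and 1605 lower. With equal totals of genes outside the enzymes and mitochondrially encoded transcripts the median gene moved by -0.10, with 116 higher and 540 lower. Members of a list are therefore best read against the median gene, which lay at 0.00 under the authors' scaling. That 0.00 is a reference point set by the scaling and not a result. Counts of called members in a list are likewise to be read against 2.39% higher and 3.3% lower over all genes.

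**Figure D2:**
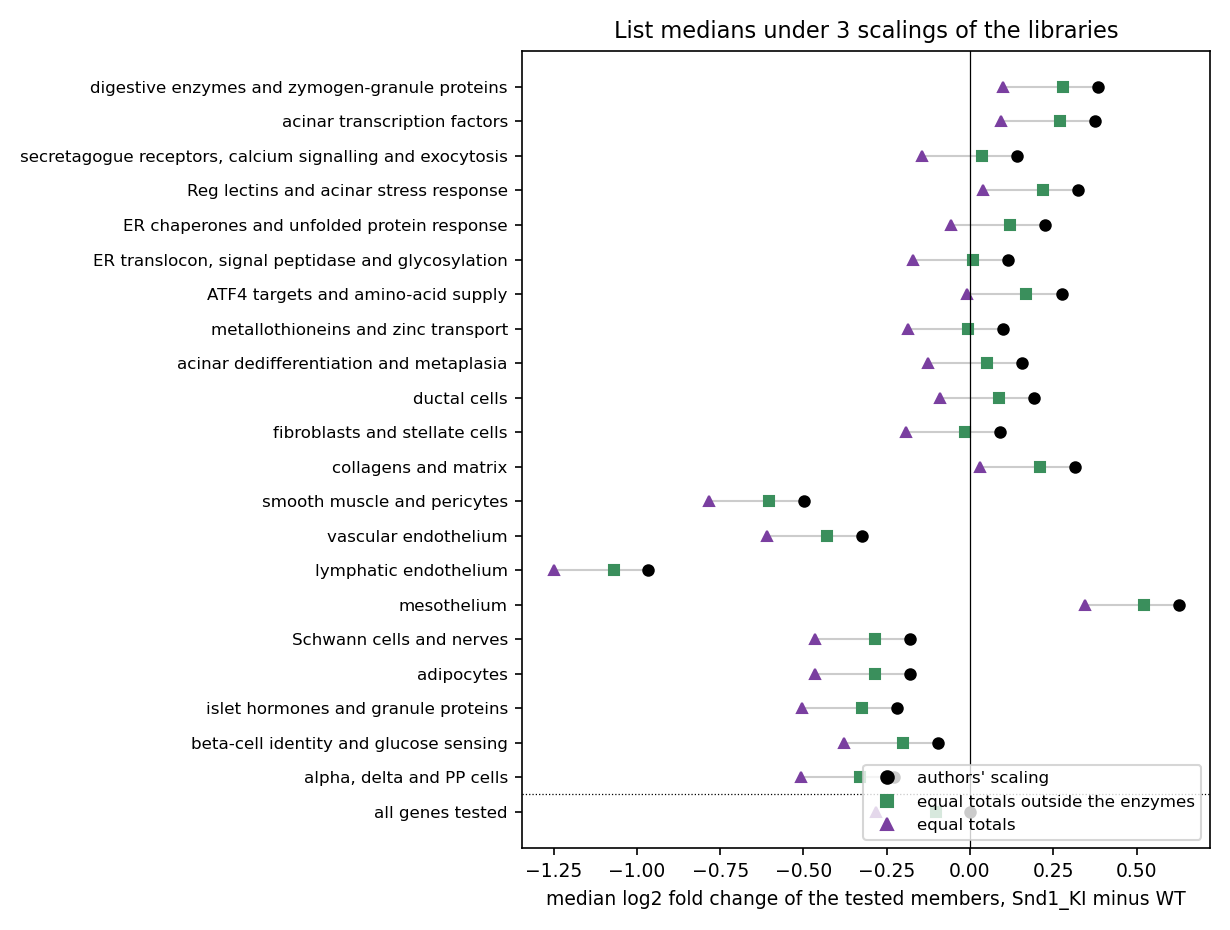
Median log2 fold change (x axis, Snd1_KI minus WT) of the tested members of each list (rows) under the authors' scaling (circles), equal totals of genes outside the enzymes (squares) and equal totals (triangles), with the median of all tested genes in the bottom row. Every list moves left with the median gene, which lies at 0.00, -0.10 and -0.28. At equal totals the mesothelial list has the highest median, 0.35. Enzymes and acinar transcription factors keep positive medians of 0.10 and 0.09, and the Reg and matrix lists 0.04 and 0.03.

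Other measures of the tissue moved with the groups. The summed T-cell markers were at 79 to 242 normalized counts in Snd1_KI and 532 to 1533 in WT, and the B-cell and plasma-cell markers at 787 to 1016 and 1618 to 3340. No tested T-cell marker rose and 17 of 19 fell, and for B and plasma cells 13 of 18 fell, against 3.3% of all genes. Of 14 markers of lymph-node stroma and lymphocyte homing 11 fell and 1, Clu, rose. The filter takes the mean of both groups, so a marker low in Snd1_KI can pass it through its WT counts. With a mean of at least 50, where 8175 genes were tested, 2 T-cell, 5 B-cell and plasma-cell and 5 lymph-node markers fell. Neither Cd3e nor Ccl21a was at 0 in any library. Glycam1, of the lymph-node list, had 5, 0 and 0 reads in the Snd1_KI libraries, against 88, 286 and 175 in the WT libraries. Fewer T-cell markers fell without Snd1_KI replicate 2 (11) or WT replicate 2 (6) or 3 (9), and 7 lymph-node markers fell without any 1 of these. Of 18 macrophage and dendritic-cell markers 3 fell, with a median of -0.47 that was -0.29 without WT replicate 3, and the macrophage marker Adgre1 overlapped (-0.27 ± 0.31, adjusted p = 0.682). None of 8 markers of neutrophils, mast cells and red cells was called. Mitochondrially encoded transcripts took 0.818% ± 0.0689 of counts in Snd1_KI and 1.27% ± 0.221 in WT (SD, n = 3 each, exact permutation p = 0.1). Protein-coding genes with a mean of at least 500 had a median exon length of 4576 bases where they rose (110 genes) and 2712 bases where they fell (34 genes), against 3912 bases for the 816 not called. The part of each of these in the results below was not tested, except where a value without a library or under another scaling is given.

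Among digestive enzymes and zymogen-granule proteins 4 of 37 tested members rose and none fell, against 2.39% and 3.3% of all genes. The median log2 fold change was 0.39 against 0.00 for all genes. Positive values were found for 32 of the 37, and 20 had groups that did not overlap, against 27.2% of all genes. The 5 negative values reached -3.42, in a member that was not called. The number higher was 11 in the limma fit of the 6 libraries alone, 10 with edgeR and 15 with DESeq2. Pnliprp2, a lipase-related protein (chromosome 19, 58759719 to 58777534), had 90490, 92342 and 98495 normalized counts in Snd1_KI, against 55703, 49099 and 62852 in WT. Every Snd1_KI library lay above every WT library, and the gene rose by 0.75 ± 0.15 (adjusted p = 0.00481; 0.0503 without WT replicate 2). Pla2g1b, the pancreatic phospholipase A2, had 19910, 21210 and 19880 in Snd1_KI, against 13940, 14680 and 14640 in WT, and also rose (0.50 ± 0.13, adjusted p = 0.0258).

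The major enzymes leaned the same way without being called. Cpa1, carboxypeptidase A1, had 795530, 829320 and 856240 normalized counts in Snd1_KI, against 577070, 573010 and 666080 in WT. Pnlip, the main triglyceride lipase, had 1487700, 1561800 and 1627700 in Snd1_KI, against 1047300, 1042100 and 1166900 in WT. Neither pair of groups overlapped, with log2 fold changes of 0.45 ± 0.24 (adjusted p = 0.3) and 0.52 ± 0.27 (adjusted p = 0.292). Both passed with DESeq2 and in a robust limma fit. Others were not called and near 0: Cela1, an elastase, differed by 0.06 ± 0.27, Ctrc, chymotrypsin C, by -0.03 ± 0.17 and Clps, colipase, by 0.02 ± 0.18. Cel, the bile-salt lipase, differed by 0.59 ± 0.24 (adjusted p = 0.173). At equal totals the median of the list was 0.10, with 3 higher and 1 lower, and 2 members were higher without WT replicate 2.

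Large rises were found in near-identical amylase copies on chromosome 3. Amy2a4 had 991, 49 and 178 reads in the Snd1_KI libraries, against 0, 1 and 0 in the WT libraries, a ratio of 1197 after scaling (95% interval 214.5 to 47330, counting error only). Most of these reads came from Snd1_KI replicate 1, and without that library the ratio was 342 (95% interval 60.7 to 13550), from 227 reads in Snd1_KI and 1 in WT. Amy2a5 had 18216, 41536 and 68403 normalized counts in Snd1_KI, against 5192, 11138 and 16816 in WT, without overlap (1.91 ± 0.37, adjusted p = 0.00469). The sum of the 5 Amy2a copies was 19885, 70827 and 70630 in Snd1_KI, against 6011, 21914 and 17453 in WT, so that Snd1_KI replicate 1 lay below WT replicate 2. Amy2b, a further amylase, did not pass the test (-0.04 ± 0.14, adjusted p = 0.911). The sources used here do not say how reads were divided among the copies, so each copy's value is uncertain. A robust limma fit ended the Amy2a5 call.

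Of 17 acinar transcription factors 2 were higher and 1 lower, against 2.39% and 3.3% of all genes. Without WT replicate 3, 4 were higher. The median was 0.37, 16 values were positive and 9 members had groups that did not overlap, against 27.2% of all genes. Nr5a2, a nuclear receptor that with PTF1A drives enzyme genes (chromosome 1, 136842571 to 136960448), had 671, 639 and 762 normalized counts in Snd1_KI, against 458, 383 and 442 in WT. The groups were well apart, and the gene rose by 0.69 ± 0.11 (adjusted p = 0.00138) and kept the call without any 1 library and at equal totals (0.41, adjusted p = 0.0428). Creb3l1, an ER-anchored factor activated by proteolysis in secretory cells, had 503, 596 and 530 in Snd1_KI, against 341, 266 and 362 in WT (0.76 ± 0.15, adjusted p = 0.00566), also kept without any 1 library.

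Rbpjl, the acinar subunit of the PTF1 complex, moved the other way. It had 554, 613 and 570 normalized counts in Snd1_KI, against 833, 815 and 686 in WT. All Snd1_KI libraries were lower, and the gene fell by 0.42 ± 0.12 (adjusted p = 0.0407), a call lost without any 1 library other than WT replicate 3 (highest adjusted p = 0.161). At equal totals the fall was 0.71 on the log2 scale (adjusted p = 0.00412). Its partner Ptf1a had 428, 417 and 356 in Snd1_KI, against 318, 280 and 349 in WT (0.34 ± 0.16, adjusted p = 0.222). Bhlha15, the granule-maturation factor also called Mist1, overlapped between groups (0.16 ± 0.12, adjusted p = 0.471) and was at -0.13 at equal totals.

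Secretagogue receptors, calcium signalling and exocytosis had 4 of 34 members higher, against 2.39% of all genes, and none lower. The median of 0.14 turned to -0.14 at equal totals. Gjb2, connexin 26, which joins acinar cells by gap junctions (chromosome 14, 57098600 to 57104702), had 741, 716 and 804 normalized counts in Snd1_KI, against 394, 429 and 448 in WT. It stood well clear of WT and rose by 0.83 ± 0.14 (adjusted p = 0.00226), and it kept its call without any 1 library and at equal totals (0.55, adjusted p = 0.0107). Cckar, the cholecystokinin receptor that triggers enzyme release, had 6012, 6195 and 6503 in Snd1_KI, against 4648, 4151 and 5097 in WT (0.43 ± 0.11, adjusted p = 0.0217). Aqp12, an acinar aquaporin (0.41 ± 0.10, adjusted p = 0.0194), and Rab3d, a GTPase on zymogen granules (0.39 ± 0.10, adjusted p = 0.0236), were the others that rose.

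The Cckar call was lost without any 1 library other than WT replicate 3 (highest adjusted p = 0.129), and that of Aqp12 without Snd1_KI replicate 2 or 3 or WT replicate 1 or 2 (highest adjusted p = 0.0918). Without 1 library the fold changes ran from 0.36 to 0.50 for Cckar and from 0.38 to 0.45 for Aqp12. At equal totals Gjb2 was the 1 member higher and 4 were lower. The granule SNAREs Vamp8 (-0.16 ± 0.11, adjusted p = 0.472) and Snap23 (-0.08 ± 0.13, adjusted p = 0.79) were not called. The muscarinic receptor Chrm3 had 142, 178 and 157 in Snd1_KI, against 106, 87.4 and 127 in WT (0.58 ± 0.19, adjusted p = 0.08).

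ER genes rose in small numbers. Of 31 chaperones and unfolded-protein-response genes 3 rose and none fell, against 2.39% higher and 3.3% lower over all genes. The median was 0.23, and -0.06 at equal totals, where 3 were lower. Derl3, which helps to move misfolded proteins out of the ER, had 868, 955 and 1142 normalized counts in Snd1_KI, against 660, 585 and 795 in WT (0.54 ± 0.13, adjusted p = 0.0223). Pdia6, a disulfide isomerase, rose by 0.41 ± 0.12 (adjusted p = 0.0409), and Atf6, a stress sensor and transcription factor, by 0.44 ± 0.12 (adjusted p = 0.0433). Hspa5, the chaperone BiP and the usual readout of ER stress, had 7753, 6935 and 8035 in Snd1_KI, against 6204, 6121 and 7061 in WT. Its groups overlapped, and it did not pass (0.23 ± 0.14, adjusted p = 0.386). No member was higher without Snd1_KI replicate 2 or 3 or WT replicate 1 or 2, 1 without Snd1_KI replicate 1 and 7 without WT replicate 3 (highest adjusted p = 0.139 for Derl3, 0.212 for Pdia6 and 0.211 for Atf6).

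In the translocon and glycosylation list 3 of 37 rose and 1 fell, against 2.39% and 3.3% of all genes. The median was 0.11, and -0.17 at equal totals, with none higher and 6 lower. Rpn2, a subunit of the glycosylation complex, rose by 0.49 ± 0.12 (adjusted p = 0.024), and Tmed10, a cargo receptor between ER and Golgi, by 0.46 ± 0.12 (adjusted p = 0.0251). Sec61g, the small gamma subunit of the translocon, had 529, 583 and 534 normalized counts in Snd1_KI, against 1060, 1176 and 650 in WT. Its WT libraries were uneven, and the fall of 0.77 ± 0.17 (adjusted p = 0.0121) was lost without Snd1_KI replicate 3 or WT replicate 1 or 2 (highest adjusted p = 0.0925). No member was higher without any 1 library other than WT replicate 3 (highest adjusted p = 0.129 for Rpn2 and 0.112 for Tmed10), and 6 were higher without that one. The median was 0.07 without WT replicate 1.

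Targets of ATF4, the factor that restores amino-acid supply when translation is braked, had 8 of 34 members higher and none lower. Over all genes 2.39% were higher and 3.3% lower. The list's median was 0.27, and -0.01 at equal totals. Wars1, the tryptophanyl-tRNA synthetase, had 1649, 1653 and 1394 normalized counts in Snd1_KI, against 984, 1020 and 1024 in WT. It rose by 0.63 ± 0.10 (adjusted p = 0.00117), kept the call without any 1 library and was the 1 member still called at equal totals (0.34, adjusted p = 0.0313). Chac1, which breaks down glutathione, had 692, 973 and 616 in Snd1_KI, against 435, 510 and 348 in WT (0.81 ± 0.19, adjusted p = 0.02). Aldh1l2, a mitochondrial folate enzyme, had 1649, 1777 and 1706 in Snd1_KI, against 1140, 1182 and 1363 in WT (0.48 ± 0.11, adjusted p = 0.0159).

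Between 1 and 4 members were higher when 1 library was left out: 1 without Snd1_KI replicate 2 or WT replicate 1, 2 without Snd1_KI replicate 3, 3 without WT replicate 2, and 4 without Snd1_KI replicate 1 or WT replicate 3. The Chac1 call was lost without Snd1_KI replicate 2 or WT replicate 1 or 3 (highest adjusted p = 0.125) and the Aldh1l2 call without Snd1_KI replicate 2 or 3 or WT replicate 1 or 2 (highest adjusted p = 0.0771). Atf4 itself overlapped between groups, with 1406, 1333 and 1400 in Snd1_KI, against 1402, 1559 and 1106 in WT (0.04 ± 0.12, adjusted p = 0.894). Ddit3, the stress factor CHOP, and Trib3, a feedback inhibitor of ATF4, were not called (0.66 ± 0.23 and 0.82 ± 0.33, adjusted p = 0.11 and 0.165).

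The promoters of Chac1 and of the asparagine synthetase gene Asns are shown because both genes rose (Asns by 0.39 ± 0.10, adjusted p = 0.0285) and both hold the amino-acid response core TGATGNAA, searched on both strands in the 250 bases before the RefSeq start of each gene (GRCm38.p6, 27025 genes); Asns was chosen after its values were seen. The core was in 6 of the 23 list members that matched the promoter table, 3 of them among the 6 called members that matched, and in 3.91% of all genes. Capitals mark the match, which starts 193 bases before the start in Chac1 (chr2:119350992-119351241, plus strand), where it lies on the other strand, and 23 before it in Asns (chr6:7693210-7693459, minus strand). A match describes the letters and is not a site shown to work.
Chac1: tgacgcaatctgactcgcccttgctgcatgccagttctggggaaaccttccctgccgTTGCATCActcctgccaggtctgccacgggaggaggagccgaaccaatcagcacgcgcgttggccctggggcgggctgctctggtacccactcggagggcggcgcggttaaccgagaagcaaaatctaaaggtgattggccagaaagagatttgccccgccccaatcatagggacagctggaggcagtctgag
Asns: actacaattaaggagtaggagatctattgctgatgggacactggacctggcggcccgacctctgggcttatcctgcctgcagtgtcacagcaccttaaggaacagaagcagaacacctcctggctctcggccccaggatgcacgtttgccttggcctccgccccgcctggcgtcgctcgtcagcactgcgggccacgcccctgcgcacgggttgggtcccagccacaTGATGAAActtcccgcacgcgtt

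Metallothioneins, small cysteine-rich proteins that hold zinc and are induced by it, and zinc transporters had 3 of 13 members higher, 3 again without any 1 library. Over all genes 2.39% were higher. Mt2 (chromosome 8, 94172664 to 94173568) had 6749, 7773 and 6252 normalized counts in Snd1_KI, against 3568, 3733 and 2314 in WT (1.14 ± 0.15, adjusted p = 0.000361). Mt1 had 9126, 9899 and 8366 in Snd1_KI, against 5105, 5375 and 3533 in WT (0.99 ± 0.14, adjusted p = 0.000668). Slc30a2, the transporter that loads zinc into zymogen granules (chromosome 4, 134343181 to 134354484), had 276, 365 and 261 in Snd1_KI, against 164, 136 and 174 in WT (0.92 ± 0.16, adjusted p = 0.00226). In all 3 every Snd1_KI library was above every WT library, and the calls held without any 1 library and at equal totals. The other 10 members were not called, and the median was 0.10 (0.00 without Snd1_KI replicate 3, 0.17 without WT replicate 1, 0.06 without WT replicate 3 and -0.19 at equal totals), among them the acinar zinc importer Slc39a5 (0.17 ± 0.10, adjusted p = 0.35) and Mtf1, the zinc sensor that acts on metallothionein promoters (-0.36 ± 0.21, adjusted p = 0.368).

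The core of the metal response element, the sequence MTF1 binds, was searched as TGCACNC or TGCGCNC on both strands of the same windows. It was present in 23.8% of all genes, in 7 of the 10 list members that matched the table and in all 3 called ones, so the core is common. The promoters of Mt2 (chr8:94172368-94172617, plus strand) and Mt1 (chr8:94178839-94179088, plus strand) are shown because these genes carry the finding; capitals mark 3 matches in Mt2, at 223, 128 and 50 bases before the start, and 1 in Mt1, at 23.
Mt2: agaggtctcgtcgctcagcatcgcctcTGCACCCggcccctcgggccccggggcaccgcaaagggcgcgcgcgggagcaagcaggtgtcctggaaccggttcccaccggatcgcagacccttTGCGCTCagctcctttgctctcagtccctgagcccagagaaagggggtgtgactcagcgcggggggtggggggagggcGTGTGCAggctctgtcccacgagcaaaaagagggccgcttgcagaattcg
Mt1: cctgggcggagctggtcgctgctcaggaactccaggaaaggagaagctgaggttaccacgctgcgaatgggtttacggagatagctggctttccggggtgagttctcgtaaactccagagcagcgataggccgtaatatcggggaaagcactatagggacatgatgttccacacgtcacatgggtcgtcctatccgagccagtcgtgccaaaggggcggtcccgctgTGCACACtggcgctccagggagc

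**Figure D3:**
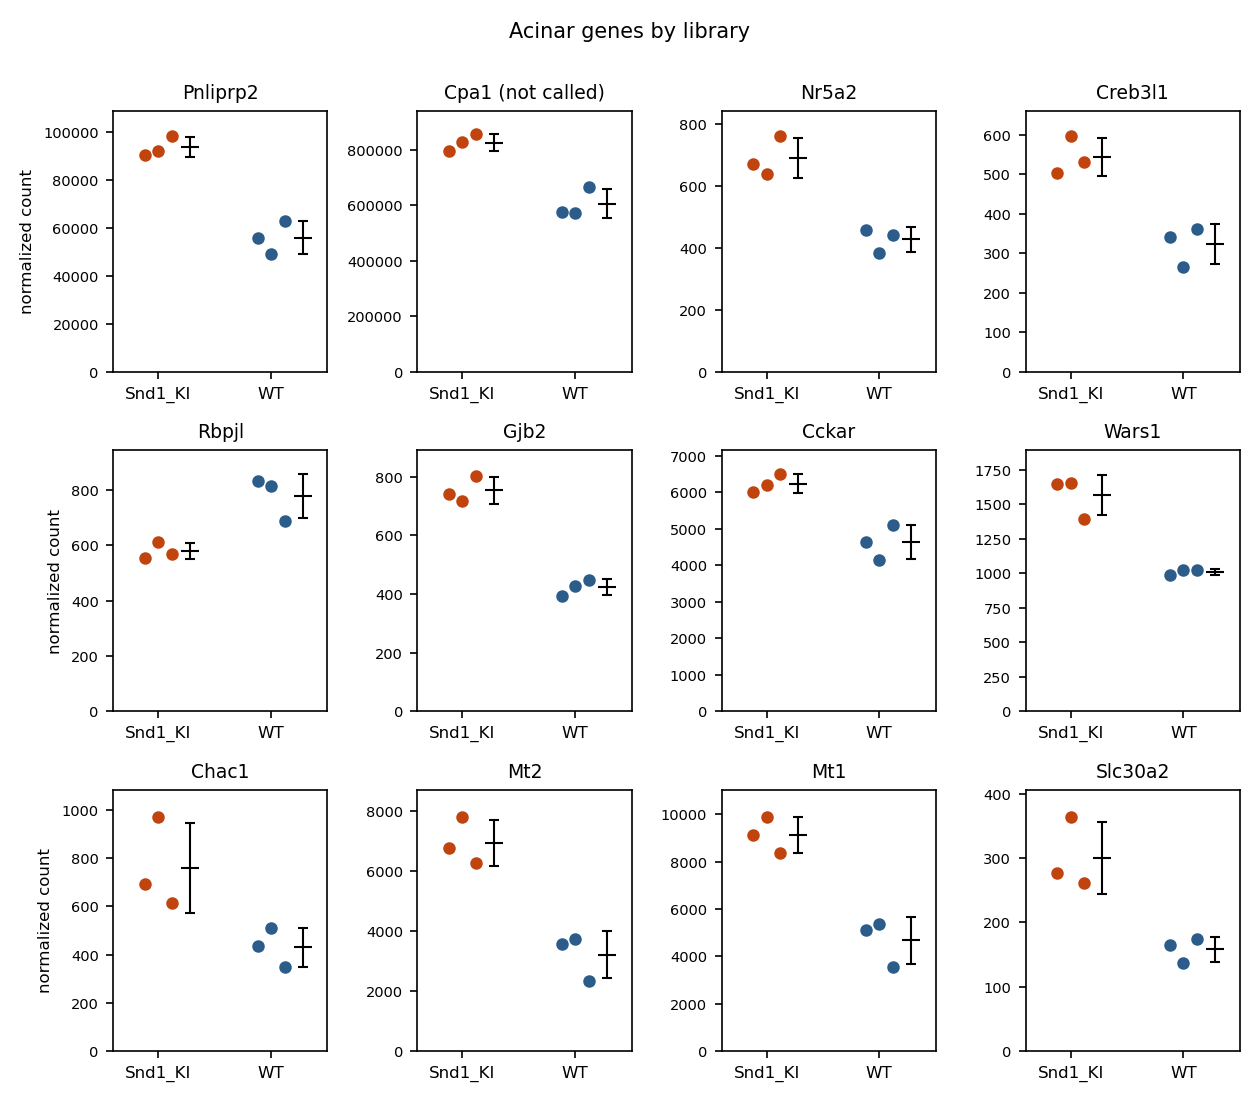
Normalized counts (y axes, from 0) of 12 acinar genes in the 3 Snd1_KI libraries (left) and the 3 WT libraries (right); points are libraries and black marks are the mean ± SD. The groups do not overlap in any of the 12 panels: Rbpjl is lower in Snd1_KI, the others are higher, and Cpa1 is not called.

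The ER stress element, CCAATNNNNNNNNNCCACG, was far rarer, in 35 of the 27025 genes (0.13%). It was in 10 of the 27 matched members of the chaperone list, including Derl3 and Pdia6, the 2 called members that matched; Hspa5, Hsp90b1, Calr and Canx held it too and were not called. Capitals mark it 156 bases before the start in Derl3 (chr10:75893148-75893397, plus strand), where it lies on the other strand, and 98 before it in Pdia6 (chr12:17266339-17266588, plus strand).
Derl3: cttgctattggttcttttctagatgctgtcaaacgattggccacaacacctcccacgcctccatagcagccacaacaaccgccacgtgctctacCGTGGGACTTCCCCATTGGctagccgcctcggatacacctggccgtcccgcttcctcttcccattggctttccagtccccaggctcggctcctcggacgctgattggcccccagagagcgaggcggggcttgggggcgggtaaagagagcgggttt
Pdia6: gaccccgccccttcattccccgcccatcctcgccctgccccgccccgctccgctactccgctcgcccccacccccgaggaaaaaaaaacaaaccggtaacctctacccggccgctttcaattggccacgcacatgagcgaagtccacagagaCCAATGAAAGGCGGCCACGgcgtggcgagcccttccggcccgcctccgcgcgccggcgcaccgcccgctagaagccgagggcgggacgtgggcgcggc

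Other abundant genes also rose. Anpep, aminopeptidase N (chromosome 7, 79821803 to 79861059), had 1778, 1882 and 1650 normalized counts in Snd1_KI, against 948, 767 and 1100 in WT (0.93 ± 0.16, adjusted p = 0.00182). Slc41a1, a magnesium carrier, had 1869, 1905 and 1852 in Snd1_KI, against 1135, 1031 and 1214 in WT (0.74 ± 0.10, adjusted p = 0.000556). Slc38a3, a glutamine transporter, had 1565, 1533 and 1477 in Snd1_KI, against 943, 803 and 1008 in WT (0.74 ± 0.11, adjusted p = 0.000682). These 3 and the guidance cue Ntn1 (0.73 ± 0.14, adjusted p = 0.00456) kept their calls without any 1 library and at equal totals.

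In the list of Reg lectins and acinar stress genes 1 of 15 rose, against 2.39% of all genes. It was Clu, the chaperone clusterin, with 15167, 14627 and 15006 normalized counts in Snd1_KI, against 9225, 8891 and 11674 in WT (0.60 ± 0.14, adjusted p = 0.0182). That call was lost without any 1 library other than WT replicate 3 (highest adjusted p = 0.109). Reg2, a secreted lectin, ran from 556 to 22310 in Snd1_KI and from 646 to 8827 in WT, with the third library lowest in both groups (0.45 ± 0.96, adjusted p = 0.845). The list's median of 0.32 was -0.06 without Snd1_KI replicate 1, 0.10 without Snd1_KI replicate 2, 0.52 without Snd1_KI replicate 3 and -0.11 without WT replicate 3.

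Among genes of acinar dedifferentiation a pair of keratins rose. Krt18, a keratin of acinar and duct cells, had 1841, 1648 and 1676 normalized counts in Snd1_KI, against 1234, 1258 and 1234 in WT (0.47 ± 0.09, adjusted p = 0.00597; 0.18 and adjusted p = 0.2045 at equal totals). Krt19, of ducts and mesothelium, had 280, 329 and 349 in Snd1_KI, against 208, 222 and 216 in WT (0.56 ± 0.13, adjusted p = 0.0131), a call lost without Snd1_KI replicate 2 or 3 or WT replicate 1 (highest adjusted p = 0.0835). They were the 2 of 20 that rose, against 2.39% of all genes, and none fell. The list's median of 0.16 was -0.13 at equal totals and 0.10 without Snd1_KI replicate 2. Sox9, the duct and progenitor factor, was not called (0.33 ± 0.18, adjusted p = 0.316).

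Of 19 duct markers 2 rose, against 2.39% of all genes, and none fell. Their median was 0.19, and -0.09 at equal totals. Muc1, an apical mucin of ducts and acini (chromosome 3, 89229057 to 89233381), had 1639, 1630 and 1523 normalized counts in Snd1_KI, against 974.6, 968 and 957 in WT. The groups were far apart, and it rose by 0.72 ± 0.10 (adjusted p = 0.000542), a call kept without any 1 library and at equal totals (0.44, adjusted p = 0.00575). Krt19 was the other. The chloride channel Cftr was near the filter and overlapped, with 10.4, 11.6 and 17.1 in Snd1_KI against 12.2, 9.91 and 5.90 in WT (0.46 ± 0.51, adjusted p = 0.663).

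Contractile genes were lower. Of 20 markers of smooth muscle and pericytes 5 were lower and none higher, against 3.3% and 2.39% of all genes. The median was -0.50 against 0.00 for all genes, and 18 of the 20 values were negative. Acta2, smooth-muscle actin (chromosome 19, 34241090 to 34255590), had 135, 215 and 164 normalized counts in Snd1_KI, against 334, 342 and 316 in WT. All 3 WT libraries lay clearly above, and the gene fell by 0.97 ± 0.18 (adjusted p = 0.00328). Tagln, transgelin, had 152, 196 and 151 in Snd1_KI, against 373, 387 and 296 in WT (-1.08 ± 0.20, adjusted p = 0.00394). Mylk, myosin light-chain kinase, had 138, 112 and 111 in Snd1_KI, against 227, 183 and 222 in WT (-0.81 ± 0.15, adjusted p = 0.00403).

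These 3 kept their calls without any 1 library. The other falls were those of Myl9, a myosin light chain (-0.77 ± 0.17, adjusted p = 0.0114), and Des, the muscle filament desmin (-0.81 ± 0.21, adjusted p = 0.0261), which was lost without Snd1_KI replicate 1 or 3 or WT replicate 1 or 3 (highest adjusted p = 0.155). Without Snd1_KI replicate 3, 3 members fell. Pericyte markers were less clear: Rgs5 had 549, 569 and 433 in Snd1_KI, against 702, 586 and 584 in WT (-0.28 ± 0.20, adjusted p = 0.468), Kcnj8 overlapped (-0.19 ± 0.50) and Cspg4 was at 0.01 ± 0.31. Summed over the list the counts were 1899 to 2217 in Snd1_KI and 2849 to 3294 in WT.

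Vascular endothelium showed a small fall with 2 of 25 markers called, against 3.3% of all genes called lower. Pecam1, the junction protein CD31 (chromosome 11, 106654217 to 106750628), had 493, 469 and 432 normalized counts in Snd1_KI, against 704, 682 and 884 in WT (-0.69 ± 0.13, adjusted p = 0.00419), kept without any 1 library. Cldn5, a tight-junction protein, had 26.8, 12.4 and 9.62 in Snd1_KI, against 40.1, 49.5 and 137 in WT (-2.06 ± 0.44, adjusted p = 0.00995), lost without Snd1_KI replicate 2 or 3 or WT replicate 3 (highest adjusted p = 0.0625). The median of the list was -0.32; 11 were lower at equal totals, and 1 without Snd1_KI replicate 2 or 3 or WT replicate 3. The VEGF receptors Kdr (0.20 ± 0.16) and Flt1 (-0.07 ± 0.18) were not called.

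Of 8 lymphatic-endothelium markers 5 were lower, against 3.3% of all genes, with a median of -0.97. Stab2, a scavenger receptor of sinus endothelium (chromosome 10, 86841198 to 87008025), had 0, 1 and 0 reads in the Snd1_KI libraries, against 39, 51 and 124 in the WT libraries. After scaling it was 218-fold higher in WT (95% interval 38.7 to 8639, counting error only; limma adjusted p = 0.000668), and 132-fold without WT replicate 3. Ccl21a, a chemokine of lymphatic vessels and lymph-node stroma, had 61.5, 41.0 and 63.1 normalized counts in Snd1_KI, against 143, 360 and 286 in WT (-2.16 ± 0.34, adjusted p = 0.00125). Lyve1, a hyaluronan receptor, had 85.7, 101 and 92.0 in Snd1_KI, against 133, 135 and 195 in WT (-0.71 ± 0.18, adjusted p = 0.0285).

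The pan-lymphatic factor Prox1, which endocrine and exocrine pancreas also use, overlapped between groups (85.7, 79.8 and 93.0 in Snd1_KI, against 101, 76.6 and 113 in WT; -0.15 ± 0.20, adjusted p = 0.721). Pdpn, podoplanin, was not called (0.70 ± 0.31, adjusted p = 0.208). Mmrn1, a multimerin, fell by 1.41 ± 0.36 (adjusted p = 0.0277; lost without any 1 library other than Snd1_KI replicate 1, highest adjusted p = 0.146). Without 1 library 2 or 3 members fell: 2 without Snd1_KI replicate 2 or WT replicate 2 or 3, and 3 without Snd1_KI replicate 1 or 3 or WT replicate 1. Marco, a receptor of sinus macrophages, had 30.3, 15.5 and 23.5 in Snd1_KI, against 269, 298 and 666 in WT. WT replicate 3 was the highest library in Marco as in Stab2, Cldn5, Lyve1 and Pecam1, whereas Ccl21a was highest in WT replicate 2. The part of lymph-node markers in the endothelial and smooth-muscle falls was not tested.

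Fibroblasts gave no common direction, and their calls were near the shares of all genes (2.39% higher and 3.3% lower). Of 23 markers Igfbp5 rose and Des fell, and the median of 0.09 changed sign at equal totals (-0.19), at equal totals outside the enzymes (-0.01) and without Snd1_KI replicate 1 (-0.02), and lay at 0.03 with Snd1_KI replicate 2 left out and at 0.05 with WT replicate 2 left out. Pdgfra, the receptor that defines these cells, had 148, 128 and 92.0 normalized counts in Snd1_KI, against 114, 102 and 124 in WT (0.09 ± 0.19, adjusted p = 0.841). Igfbp5, a secreted binder of insulin-like growth factors, had 1732, 1982 and 2262 in Snd1_KI, against 1448, 813 and 1419 in WT (0.74 ± 0.21, adjusted p = 0.0467). WT replicate 2 was the low library there, and leaving it or any Snd1_KI library out ended the call (highest adjusted p = 0.263), as did TMM, edgeR and DESeq2. Aebp1, a collagen-binding protein, had 545, 679 and 766 in Snd1_KI, against 489, 310 and 412 in WT (0.73 ± 0.20, adjusted p = 0.0387), lost without Snd1_KI replicate 2 or 3 or WT replicate 2 or 3 (highest adjusted p = 0.211).

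The matrix genes leaned upward, with 35 of 42 values positive and a median of 0.32. Calls were few, 2 higher and 1 lower, against 2.39% and 3.3% of all genes. Col3a1, a fibrillar collagen, had 3057, 4156 and 3004 normalized counts in Snd1_KI, against 2693, 1549 and 2756 in WT (0.58 ± 0.20, adjusted p = 0.101). Col1a1 had 726, 903 and 714 in Snd1_KI, against 574, 353 and 700 in WT (0.57 ± 0.20, adjusted p = 0.107; 0.0288 without WT replicate 3). WT replicate 2 was the lowest of the 6 libraries in both, and without it the list's median was 0.14; at equal totals it was 0.03. Col6a6 (0.99 ± 0.27, adjusted p = 0.0367) and the basement-membrane protein Nid2 (0.65 ± 0.19, adjusted p = 0.0478) rose. Leaving out any 1 library ended the Nid2 call (highest adjusted p = 0.167), and any 1 other than WT replicate 3 that of Col6a6 (highest adjusted p = 0.201).

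Tenascin C ran against its list. Tnc (chromosome 4, 63959785 to 64047015), a matrix protein of remodelling tissue and of lymphoid reticular fibres, had 1.73, 5.42 and 2.14 normalized counts in Snd1_KI, against 27.9, 38.7 and 76.7 in WT. It fell by 3.55 ± 0.66 (adjusted p = 0.00358), and the call held without any 1 library and at equal totals (adjusted p = 0.00122). WT replicate 3 was the highest, as for Marco and Stab2.

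Of 11 mesothelial markers 3 were higher and none lower, against 2.39% and 3.3% of all genes, with a median of 0.63. Lrrn4, a membrane protein of mesothelium (chromosome 2, 132868305 to 132880891), had 187, 205 and 212 normalized counts in Snd1_KI, against 105, 54.9 and 115 in WT (1.20 ± 0.29, adjusted p = 0.0212). Upk3b, a uroplakin, had 403, 615 and 644 in Snd1_KI, against 353, 216 and 335 in WT (0.88 ± 0.24, adjusted p = 0.0351). Msln, mesothelin, had 167, 216 and 283 in Snd1_KI, against 166, 113 and 102 in WT, where the nearest libraries almost touched (0.80 ± 0.26, adjusted p = 0.0826). Krt19, named above, was the third.

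The number of calls changed with the library left out, while the median ran from 0.56 to 0.85. None was called without Snd1_KI replicate 2 or 3, 1 without WT replicate 2 and none at equal totals, where the median was 0.35 (highest adjusted p = 0.14 for Lrrn4 and 0.201 for Upk3b). Adipocyte markers did not separate the groups: none of 21 was called, Adipoq, adiponectin, had 127, 255 and 181 in Snd1_KI, against 232, 166 and 318 in WT (-0.35 ± 0.40, adjusted p = 0.679), and the median of -0.18 ran from -0.53 without WT replicate 2 and -0.39 without Snd1_KI replicate 2 to 0.03 without Snd1_KI replicate 1 and 0.05 without WT replicate 3. None of 8 Schwann-cell and nerve markers was called.

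**Figure D4:**
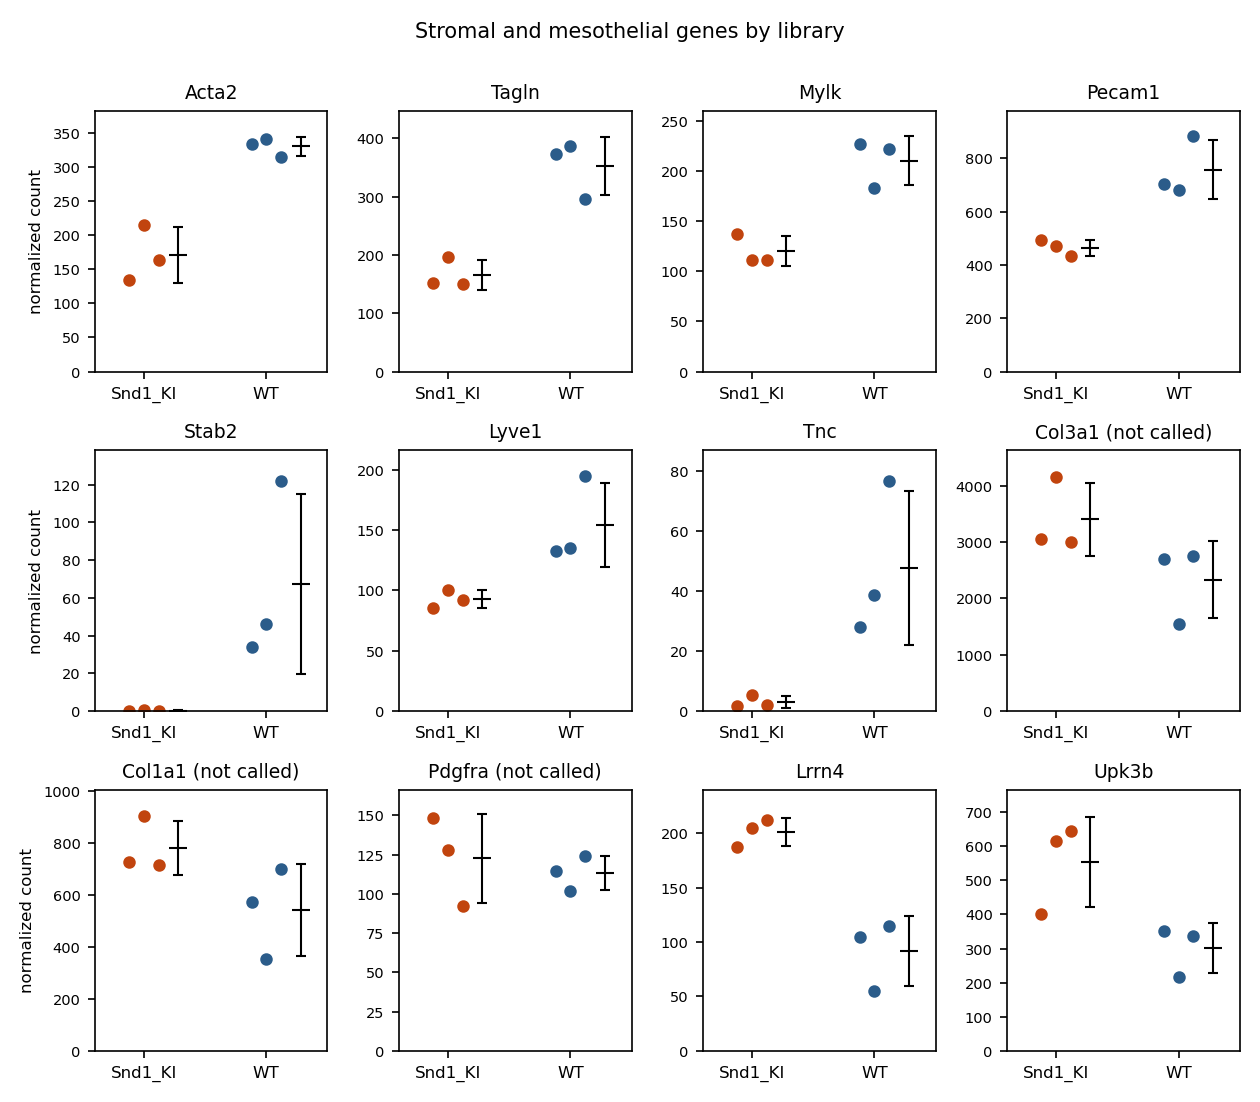
Normalized counts (y axes, from 0) of 12 genes of smooth muscle, endothelium, matrix and mesothelium in the 3 Snd1_KI libraries (left) and the 3 WT libraries (right); points are libraries and black marks are the mean ± SD. Acta2, Tagln, Mylk, Pecam1, Stab2, Lyve1 and Tnc are lower in every Snd1_KI library, Lrrn4 and Upk3b are higher, and Col3a1, Col1a1 and Pdgfra are not called.

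In the islets no hormone gene passed the test, although the insulin, glucagon, somatostatin and amylin genes had lower means in Snd1_KI. Ins2 (chromosome 7, 142678656 to 142743381), the main insulin gene of the mouse, had 28103, 16257 and 19514 normalized counts in Snd1_KI, against 27316, 30612 and 28206 in WT. Snd1_KI replicate 1 lay within the WT range and the other 2 below it, with a difference of -0.47 ± 0.19 (adjusted p = 0.175). Ins1 had 14605, 8338 and 10988 in Snd1_KI, against 14562, 16823 and 14371 in WT (-0.47 ± 0.20, adjusted p = 0.2). Gcg, which encodes glucagon, had 2610, 1321 and 2375 in Snd1_KI, against 2529, 3945 and 3001 in WT (-0.62 ± 0.26, adjusted p = 0.172).

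Snd1_KI replicate 2 was the lowest library in all 3 genes. Sst, somatostatin, had 364, 239 and 364 in Snd1_KI, against 400, 574 and 520 in WT, without overlap (-0.64 ± 0.25, adjusted p = 0.159). Iapp, the amyloid peptide that beta cells release with insulin, had 1998, 991 and 1391 in Snd1_KI, against 2221, 2688 and 2084 in WT, also without overlap (-0.72 ± 0.21, adjusted p = 0.0542). Ppy, of PP cells, was level (-0.01 ± 0.39, adjusted p = 0.993).

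Together the hormones took 1.21%, 0.675% and 0.891% of the counts outside the enzymes in Snd1_KI, against 1.26%, 1.46% and 1.32% in WT. The groups did not overlap, with a difference of -0.418 percentage points (exact two-sided permutation p = 0.1, the smallest possible). At equal totals Ins1, Ins2, Gcg and Sst were all called lower (-0.75, -0.75, -0.91 and -0.92, adjusted p = 0.0192, 0.0149, 0.0237 and 0.026), with the median gene at -0.28. Sst alone of these was also called in the fit of the 6 libraries.

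Of 18 hormone and granule genes 1 rose and none fell, against 2.39% and 3.3% of all genes. The list's median of -0.22 was -0.51 without Snd1_KI replicate 1 and 0.02 without Snd1_KI replicate 2. Chga, chromogranin A, ran from 781 to 1945 in Snd1_KI and from 1271 to 1505 in WT (-0.17 ± 0.24, adjusted p = 0.755). None of 23 beta-cell identity and glucose-sensing genes was called; their median was -0.10, -0.30 without Snd1_KI replicate 1 and 0.10 without Snd1_KI replicate 2. Pdx1, a factor of beta cells and acini, had 99.6, 87.5 and 69.5 in Snd1_KI, against 60.2, 46.8 and 76.7 in WT (0.49 ± 0.23, adjusted p = 0.231).

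The 2 islet-list genes that rose are not hormones. Ptprn2, a phosphatase-like protein of secretory granules (chromosome 12, 116485720 to 117276849), had 1801, 2033 and 1965 normalized counts in Snd1_KI, against 1369, 1041 and 1623 in WT (0.55 ± 0.15, adjusted p = 0.0349). Slc38a5, a glutamine transporter induced in proliferating alpha cells, had 1327, 1430 and 1459 in Snd1_KI, against 770, 718 and 1151 in WT (0.71 ± 0.16, adjusted p = 0.015). Snd1_KI replicate 2, the lowest library in the hormones, was the highest Snd1_KI library in Ptprn2 and the middle one in Slc38a5. Ptprn2 lost its call without any 1 library other than WT replicate 3 (highest adjusted p = 0.204) and Slc38a5 without Snd1_KI replicate 2 or 3 or WT replicate 1 or 2 (highest adjusted p = 0.103), and both at equal totals (adjusted p = 0.188 and 0.06). The list of alpha, delta and PP cells had this 1 rise of 11, against 2.39% of all genes. Its median was -0.23, or -0.36 with Snd1_KI replicate 1 left out and -0.04 with WT replicate 1 left out.

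**Figure D5:**
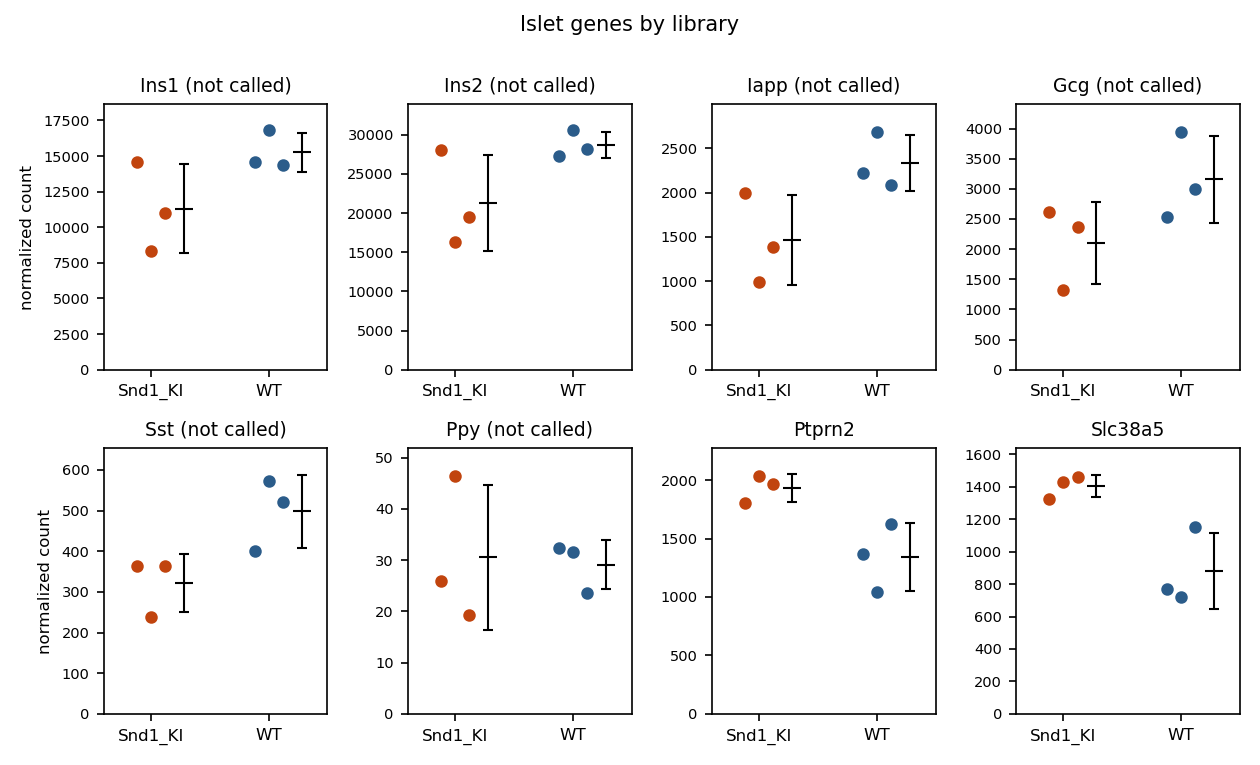
Normalized counts (y axes, from 0) of 8 islet genes in the 3 Snd1_KI libraries (left) and the 3 WT libraries (right); points are libraries and black marks are the mean ± SD. In Ins1, Ins2 and Gcg the first Snd1_KI library lies within the WT range and the second is lowest; Ptprn2 and Slc38a5 are the 2 called and are higher in Snd1_KI.

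Among abundant genes outside the immune lists, the largest falls included genes of antigen presentation and actin. Cd74, the invariant chain of antigen presentation, had 496, 376 and 459 normalized counts in Snd1_KI, against 929, 1490 and 1593 in WT (-1.56 ± 0.19, adjusted p = 0.000265). Tmsb10 and Tmsb4x, thymosins that bind actin monomers, fell by 1.12 ± 0.19 and 0.81 ± 0.12 (adjusted p = 0.00217 and 0.000816). B2m, the light chain of MHC class I, fell by 0.88 ± 0.12, its heavy chain H2-K1 by 0.75 ± 0.14 and Actb, cytoplasmic actin, by 0.78 ± 0.12 (adjusted p = 0.000501, 0.00299 and 0.000993). All 6 kept their calls without any 1 library, and T-cell and B-cell markers were lower in the same libraries.

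Rsrp1, an arginine- and serine-rich protein, had 356, 316 and 340 normalized counts in Snd1_KI, against 769, 749 and 551 in WT (-1.01 ± 0.16, adjusted p = 0.00153), kept without any 1 library. Ndufb8, a subunit of respiratory complex I, had 416, 434 and 354 in Snd1_KI, against 826, 980 and 550 in WT (-0.93 ± 0.20, adjusted p = 0.0108). Tmed11, a cargo receptor of the early secretory pathway, had 1255, 1235 and 1164 in Snd1_KI, against 2490, 2920 and 1582 in WT (-0.89 ± 0.19, adjusted p = 0.00971). WT replicate 3 was the lowest WT library in these 3 genes and in Sec61g. The Ndufb8 and Tmed11 calls were lost without Snd1_KI replicate 3 or WT replicate 2 (highest adjusted p = 0.0826 and 0.0771), and that of the kinase Sgk1 (-0.91 ± 0.18, adjusted p = 0.00563) without WT replicate 2 (adjusted p = 0.0512).

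Of 9 linker and core histones 3 rose and 1 fell, against 2.39% and 3.3% of all genes. H1f2, a linker histone, had 516, 520 and 308 normalized counts in Snd1_KI, against 205, 139 and 220 in WT (1.24 ± 0.19, adjusted p = 0.000985), and H1f0, the linker histone of differentiated cells, rose by 0.54 ± 0.09 (adjusted p = 0.00199). At equal totals 1 histone was higher, and H1f0 was at 0.26 (adjusted p = 0.0851). The replication-independent histone H3f3a fell by 0.52 ± 0.11 (adjusted p = 0.0103; 0.0755 without WT replicate 2). Transcripts of replication-dependent histones lack a long polyA tail, so polyA selection reads them poorly. Fads2, a fatty-acid desaturase, had 218, 305 and 249 in Snd1_KI, against 131, 109 and 136 in WT (1.03 ± 0.17, limma adjusted p = 0.00155). It was the 1 of 28 sterol and fatty-acid genes that changed, near the 2.39% of all genes called higher.

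Few growth and early-response genes were called, where 2.39% of all genes were higher and 3.3% lower. Pcna, the replication clamp, was the 1 of 15 proliferation genes called, and it fell by 0.50 ± 0.14 (adjusted p = 0.0481), a call lost without any 1 library other than WT replicate 3 (highest adjusted p = 0.229). Of 26 immediate-early and clock genes 2 fell: Zfp36, which destabilizes AU-rich messages (-0.72 ± 0.18, adjusted p = 0.0275), lost without any 1 library other than WT replicate 3 (highest adjusted p = 0.133), and Klf2, a factor of endothelium and resting lymphocytes (-0.77 ± 0.20, adjusted p = 0.032), lost without any 1 library (highest adjusted p = 0.123).

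Of 12 mitochondrially encoded transcripts 1 fell, against 3.3% of all genes. Among the 12 values 11 were negative, with a median of -0.36. At equal totals 10 were lower. The transcript that fell was mt-Atp8 (-1.21 ± 0.33, adjusted p = 0.0359), lost without any 1 library other than WT replicate 3 (highest adjusted p = 0.218).

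Few genes separated the mutants from each other: 14 of 12045 (0.116%) differed between Snd1_KI and S6k2_RK. The pairs of comparisons share the Snd1_KI libraries, so the values are given side by side. BC034090 had 300, 305 and 362 normalized counts in Snd1_KI, 161, 124 and 158 in S6k2_RK and 137, 132 and 159 in WT (1.13 ± 0.15 against S6k2_RK, adjusted p = 0.00251). Klk1b11, a kallikrein-family protease, had 259, 256 and 238 in Snd1_KI, 119, 113 and 143 in S6k2_RK and 100, 125 and 136 in WT (1.01 ± 0.15, adjusted p = 0.00648). Amy2a4, Gm29216 and Serpina10 were likewise higher in Snd1_KI than in either other group.

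In Nupr1, Spink1, Lars2 and 1810009J06Rik the Snd1_KI mean was nearer to WT than to S6k2_RK. Nupr1, an acinar stress regulator, had 12870, 14450 and 9312 normalized counts in Snd1_KI, 22390, 21330 and 26040 in S6k2_RK and 9196, 9638 and 9641 in WT (-0.95 ± 0.14 against S6k2_RK, adjusted p = 0.00452). Spink1, the trypsin inhibitor of acinar cells, had 4245, 3515 and 4289 in Snd1_KI, 5936, 6352 and 8698 in S6k2_RK and 4198, 4354 and 4063 in WT (-0.79 ± 0.13, adjusted p = 0.0122). The metallothioneins, Gjb2, Muc1, Acta2 and Pecam1 were not among the 14. For Mt2 the difference was -0.45 ± 0.15 (limma adjusted p = 0.278). In all of these the S6k2_RK mean lay on the same side of WT as the Snd1_KI mean. Means in Snd1_KI, S6k2_RK and WT were 6924, 9425 and 3205 for Mt2 and 1597, 1694 and 967 for Muc1. They were 754, 709 and 424 for Gjb2, 171, 203 and 331 for Acta2, and 465, 508 and 757 for Pecam1. Such shifts from WT are thus not particular to Snd1_KI, although S6k2_RK against WT was not tested here.

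Within 10 Mb of Snd1 on chromosome 6, 69 other genes were tested, of which Trim24 was higher and Atp6v1f lower (2.9% called), against 2.39% higher and 3.3% lower over all genes.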

How the data were processed

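Whole-pancreas RNA was sequenced from 3 Snd1_KI, 3 S6k2_RK and 3 WT mice. The authors deposited 1 table of normalized counts, a signal of gene counts divided by a size factor per library; the submitters' processing notes name DESeq2 and GRCm38/mm10. The aligner and the counter are not stated in the sources used here. Dividing by the value of 1 read gave whole reads for 100% of values (tolerance 1e-06), 13461427 to 21034501 a library. Of 4669 identifiers without a symbol, 3737 were named from a reference table.

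The main test was limma 3.58.1 (R 4.3.3, trend) on log2(normalized count + 1) over all 9 libraries, for 12045 genes averaging at least 10 in the Snd1_KI and WT libraries, two-sided, with Benjamini-Hochberg adjustment and a threshold of 0.05. A log2 fold change on this scale understates changes of low genes. Other normalizations, filters, pseudocounts, left-out libraries, a replicate block, and edgeR 4.0.16 and DESeq2 1.42.0 on the recovered reads were alternatives; edgeR called 310 genes higher and 520 lower. On simulated data with 12045 genes the Snd1_KI against WT test called 81 of 100 genes changed 2-fold, 9 of 100 changed 1.41-fold and 4 of 11845 unchanged ones. The simulation divided each library by its true size and drew no changed gene from those with the lowest counts. It held no scaling error, so it does not give the rate of false calls in the real data.

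Genes were named by rule: Snd1, the 12 largest called rises and 12 largest called falls averaging at least 500 outside the immune lists, up to 3 called members per other list, and a set of defining genes; further list members were named after their values were seen. The comparison and its 31 lists were chosen with earlier results of these data known. Promoters are from the RefSeq table of GRCm38.p6, and gene coordinates from GENCODE M21. Some genes of the lists are not reported here.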

Additional observations from a re-analysis of the deposited data

How the results depend on the processing

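Genes higher in Snd1_KI than in WT, 288 as reported, numbered 44 at equal totals, 116 at equal totals outside the enzymes, 542 with array weights and 75 to 349 without 1 library. Of genes lower in Snd1_KI, 398 as reported, there were 203 with a mean of at least 50, where fewer genes were tested, 1605 at equal totals, 631 with edgeR on 6 libraries, 602 with array weights and 141 to 340 without 1 library. Between Snd1_KI and S6k2_RK, 14 genes differed as reported and 35 at equal totals. The cause of these moves was not tested, and the added alternatives were chosen after seeing the data.

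Among the named genes, signs turned only in ones that were not called. At equal totals Bhlha15 was at -0.13, Pdgfra at -0.19 and Cela1 at -0.22; at equal totals outside the enzymes Pdgfra was at -0.0146 and Cela1 at -0.0444. Ppy was at 0.0800 with edgeR, 0.0815 with edgeR on 6 libraries and 0.0749 with DESeq2. Without 1 library Adgre1 ran from -0.55 to 0.0843, Pdgfra from -0.0588 to 0.28, Cela1 from -0.0578 to 0.17 and Ppy from -0.35 to 0.26. Of the 68 named genes called, 33 were called without any 1 library and 46 at equal totals. The enzyme difference was 3.3 to 4.12 points and the islet difference -0.56 to -0.293 points without 1 library.

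Equal replicate numbers did not pair the samples (correlations -0.0763, -0.0354 and 0.0109). With a replicate block 249 genes were higher and 343 lower over 9 libraries, 372 and 528 over 6, and 11 differed between Snd1_KI and S6k2_RK. Over 9 libraries Aebp1, Atf6, Cd3e, Col6a6, Igfbp5, Nid2, Pcna, Pdia6, Rbpjl and Upk3b lost their calls (adjusted p = 0.0519 to 0.0714). Over 6, Pcna lost its call and Cpa1, Pnlip, Msln and Sst gained one.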
